A study of Rattus norvegicus with 4 samples.

Results

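The genes described here encode 7 cell-surface proteins through which blood vessel endothelium holds and passes leukocytes: the selectins Sele and Selp, the immunoglobulin-family ligands Icam1, Icam2 and Vcam1, and the junctional adhesion molecules Jam2 and Jam3. They were chosen by gene symbol, and each of the 7 symbols was found among the 23608 gene entries of the count table. The cells were wild-type primary vascular cells grown as microvessels from the subcutaneous soft connective tissue of rats. RNA was sequenced from 4 groups with 1 library each: stiff matrix with A83-01, stiff matrix without it, soft matrix with A83-01, and soft matrix without it. A83-01 blocks the kinase activity of TGF-beta type I receptors, and the study asked how stiffness and this drug act on microvessels and on pericytes that turn into myofibroblasts. Stiffness values, dose, treatment time, the age, sex and strain of the animals, and whether animals were pooled are not stated in the labels. The sample codes in the descriptions differ in form between stiff and soft libraries (CY-1 and CAY-1 against mem-CY and mem-CAY), and nothing says that the 4 were prepared together, so an effect of stiffness cannot be told apart from one of a separate preparation.

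Leukocytes leave the blood in steps. Selectins on activated endothelium slow them, so that they roll along the vessel wall. Chemokines then switch on their integrins, which bind immunoglobulin-family ligands and arrest the cell, and junctional molecules take part in the passage between endothelial cells. Resting endothelium carries Icam2 constitutively, whereas inflammatory cytokines acting through NF-kappaB raise transcription of Sele, Vcam1 and Icam1. Selp protein is stored in endothelial granules and in platelets and is released to the surface within minutes. Icam1, Vcam1 and Jam3 are not confined to endothelium, and pericytes and fibroblasts can make them.

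Total counts lay between 32271844 and 33416200 per library, and 13634 genes reached 1 CPM (a count relative to the library's total, scaled by trimmed mean of M-values, TMM) in at least 1 library and entered the comparisons. Since each group is a lone library, replicates cannot check any ratio of 2 libraries. The 95% intervals below cover counting error only, and PCR copies could make them too narrow even for that. A difference of at least 2-fold means a ratio of 2 or more with a counting interval that leaves out 1. Comparisons that involve the same library are not independent of each other. Sele and Selp reached the minimum through the library of soft matrix with A83-01 alone, so a difference from that library was partly fixed by the filter. The other 5 genes reached it in every library. In cells of mixed origin, fewer cells of a type and less RNA per cell cannot be told apart.

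Vcam1 had the largest fold range of the 7 genes. It was 22.9-fold higher in its highest than in its lowest library, was lowest on stiff matrix without the inhibitor and was higher with A83-01 on both matrices. Sele and Selp each spanned 17.8-fold with counts as low as 4, so their order against Vcam1 is uncertain. Icam1, the most abundant member, was lower in both stiff libraries and, by TMM scaling, nearly equal with and without A83-01. Sele and Selp transcripts were rare and reached their highest level on soft matrix with A83-01. Icam2 and Jam2 were highest on stiff matrix with A83-01.

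The promoters of Vcam1 and Icam1 are shown because Vcam1 had the largest fold range among the libraries and Icam1 passed the test of stiffness. Promoter windows of the RefSeq table (build GRCr8) were found for 4 of the 7 genes, Icam1, Vcam1, Sele and Jam2. Capitals mark matches, on either strand, to the NF-kappaB consensus, to GGAAATTCC, an NF-kappaB site form, or to a TATA box, searched as TATAAA. The Vcam1 sequence is the 250 bases before the annotated start at chr2:206742784-206743033, minus strand, and the Icam1 sequence is the 93 bases before the outermost annotated start at chr8:27829595-27829687, plus strand.
Vcam1: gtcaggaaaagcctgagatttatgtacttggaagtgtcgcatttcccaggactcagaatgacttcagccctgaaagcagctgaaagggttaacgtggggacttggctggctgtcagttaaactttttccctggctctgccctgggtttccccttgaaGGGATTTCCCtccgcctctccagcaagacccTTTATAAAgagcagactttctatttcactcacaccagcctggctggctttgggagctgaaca
Icam1: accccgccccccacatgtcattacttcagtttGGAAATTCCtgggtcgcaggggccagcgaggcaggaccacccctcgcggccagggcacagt

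In Vcam1 the consensus matched on both strands of the same 10 bases, 93 to 84 bases before the start, and the TATAAA matches on the 2 strands overlapped. The table's start sites for Jam2 and Sele lie 1273 and 517 bases inside the outermost annotated start, and that for Icam1 157 bases, so these windows are not those of the outermost starts. The Jam2 window held 1 consensus match, on the minus strand, and the Sele window held none of the 3 motifs. The Icam1 window also held TATAAA on the plus strand, inside the annotated gene and outside the bases shown. GGAAATTCC was chosen after the sequences were seen. The consensus was present in 7.51% of all 33469 windows of 300 bases, GGAAATTCC in 0.332% and TATAAA in 14.2%. Only exact matches to the 3 searched motifs are marked, so stretches that differ from them by a base stay in lower case. A match describes letters in the window and was not tested for binding.

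Sele encodes E-selectin, which endothelium makes after cytokine stimulation. It had 5 counts in stiff with A83-01, 4 in stiff, 82 in soft with A83-01 and 19 in soft. These correspond to 0.140, 0.138, 2.45 and 0.568 CPM in the same libraries. The library of soft matrix with A83-01 stood above the other 3, soft without inhibitor came next, and both stiff libraries were close to the floor of 3 counts. With A83-01 on soft matrix, Sele was 4.31-fold higher (2.59 to 7.52). On stiff matrix the ratio of A83-01 to none was 1.02 (0.219 to 5.14), too wide to show a difference. Stiff was 4.12-fold lower than soft without the inhibitor (1.37 to 16.7) and 17.4-fold lower with it in both (7.18 to 55.2).

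Selp encodes P-selectin, the selectin kept in granules. It had 4 counts in stiff with A83-01, 6 in stiff, 67 in soft with A83-01 and 6 in soft, or 0.112, 0.206, 2.0 and 0.179 CPM. The library of soft matrix with A83-01 stood above the others, which did not differ beyond counting error. Selp was 11.2-fold higher with A83-01 on soft matrix (4.87 to 31.5), from 67 against 6 counts. On stiff matrix the ratio of A83-01 to none was 0.544 (0.113 to 2.29). With A83-01 in both, stiff was 17.8-fold lower than soft (6.64 to 67.3), and without it the ratio of stiff to soft was 1.15 (0.308 to 4.31), whose side of 1 changed with total counts and with FPKM.

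Platelets and their precursors also carry Selp. Of 6 platelet and megakaryocyte markers, Ppbp and Gp6 had 0 counts in every library. The list's summed level was 70.5 CPM in stiff with A83-01, 144 in stiff, 70.4 in soft with A83-01 and 104 in soft. Gp1bb held most of this sum, with 66.1, 140, 59.1 and 88.7 CPM in the same libraries. Without Gp1bb, left out after its values were seen, the sum was 4.4 CPM in stiff with A83-01, 3.58 in stiff, 11.3 in soft with A83-01 and 14.9 in soft. Itga2b, an integrin chain of platelets, stood at 0.842, 0.860, 1.49 and 1.14 CPM, and Gp9 had 6 counts in soft with A83-01 and 0 elsewhere. Pf4 held most of the sum without Gp1bb, at 3.56, 2.72, 9.58 and 13.7 CPM. On soft matrix Pf4 was lower with A83-01, where Selp was higher. That sum was thus higher on soft matrix mainly through Pf4, and the part of platelets in the Selp result was not tested.

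Vcam1 encodes the ligand of the leukocyte integrin VLA-4. It stood at 29.3 CPM in stiff with A83-01, 2.10 in stiff, 48.1 in soft with A83-01 and 21.9 in soft, from 1046, 61, 1611 and 734 counts. The stiff library without inhibitor lay far below the other 3, and in the order of the 4 levels each neighbour differed from the next beyond counting error. With A83-01, Vcam1 was 14.0-fold higher on stiff matrix (10.8 to 18.4) and 2.19-fold higher on soft matrix (2.01 to 2.40). These were the 59th and the 257th highest ratios of the 13634 genes. The response on stiff matrix exceeded that on soft matrix by 2.64 on the log2 scale (2.24 to 3.03, counting error), which 4 libraries do not allow to test.

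Between matrices, Vcam1 was 10.4-fold lower in stiff than in soft without inhibitor (8.04 to 13.8) and 1.64-fold lower with A83-01 in both (1.51 to 1.77). By deposited FPKM (fragments per kilobase of length, scaled to library size), it stood above 56.5% of the compared genes in stiff with A83-01, 9.47% in stiff, 71.5% in soft with A83-01 and 49.8% in soft.

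Icam1 encodes a ligand of the integrins LFA-1 and Mac-1 and supports firm adhesion. It stood at 90.8 CPM in stiff with A83-01, 94.8 in stiff, 152 in soft with A83-01 and 158 in soft. Both stiff libraries lay below both soft libraries, and within each matrix the libraries with and without inhibitor did not differ beyond counting error. Stiff was 1.67-fold lower than soft without inhibitor (1.59 to 1.75) and 1.68-fold lower with A83-01 in both (1.61 to 1.75). The nearness of the 2 folds depended on the scaling, though both stayed lower. Without and with A83-01 the log2 ratios were -0.74 and -0.75 by TMM, -0.97 and -0.71 by total counts, and -0.49 and -1.16 by endothelial markers. The ratio of A83-01 to none was 0.958 on stiff (0.910 to 1.01) and 0.963 on soft matrix (0.926 to 1.00). On stiff matrix this ratio depended on the scaling, with a log2 value of 0.22 by total counts and -0.72 by endothelial markers, against -0.06 by TMM.

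Icam2 encodes a constitutive endothelial ligand of LFA-1. It stood at 40.1 CPM in stiff with A83-01, 18.3 in stiff, 22.9 in soft with A83-01 and 20.8 in soft. The stiff library with A83-01 stood apart, and the other 3 lay within a narrow band. With A83-01, Icam2 was 2.19-fold higher on stiff matrix (1.99 to 2.43), while on soft matrix the ratio was 1.10 (0.992 to 1.22). Stiff was 1.14-fold lower than soft without inhibitor (1.02 to 1.28), a direction that turned when counts were scaled to endothelial markers, and 1.75-fold higher with A83-01 in both (1.60 to 1.91). The Icam2 gene overlaps Prr29 in RefSeq, and no strand-marking step is stated, so reads of this pair may not have been separated. Prr29 had 192 counts in stiff with A83-01, 76 in stiff, 129 in soft with A83-01 and 126 in soft, far fewer than the 1429, 531, 767 and 696 of Icam2.

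Jam2 encodes JAM-B, a tight-junction protein of endothelium that binds the product of Jam3. It stood at 9.15 CPM in stiff with A83-01, 2.61 in stiff, 3.40 in soft with A83-01 and 3.02 in soft. As with Icam2, the stiff library with A83-01 stood above the other 3, which here did not differ between neighbours beyond counting error. Jam2 was 3.5-fold higher with A83-01 on stiff matrix (2.72 to 4.55), and its ratio on soft matrix was 1.13 (0.855 to 1.49). With A83-01 in both, stiff was 2.69-fold higher than soft (2.17 to 3.36). Without it, the ratio of stiff to soft was 0.866 (0.635 to 1.18), which turned above 1 when counts were scaled to endothelial markers.

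Jam3 encodes JAM-C, which binds JAM-B and the leukocyte integrin Mac-1. It stood at 32.1 CPM in stiff with A83-01, 30.3 in stiff, 20.4 in soft with A83-01 and 24.0 in soft. Both stiff libraries lay above both soft libraries. Stiff was 1.26-fold higher than soft without inhibitor (1.14 to 1.39) and 1.57-fold higher with A83-01 in both (1.43 to 1.73). The size of both folds depended on the scaling, though both stayed higher. Without and with A83-01 the log2 ratios were 0.33 and 0.65 by TMM, 0.10 and 0.69 by total counts, and 0.58 and 0.24 by endothelial markers. With A83-01, Jam3 was 1.18-fold lower on soft matrix (1.06 to 1.31), and on stiff matrix its ratio was 1.06 (0.970 to 1.16), which turned below 1 when counts were scaled to endothelial markers.

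**Figure D1:**
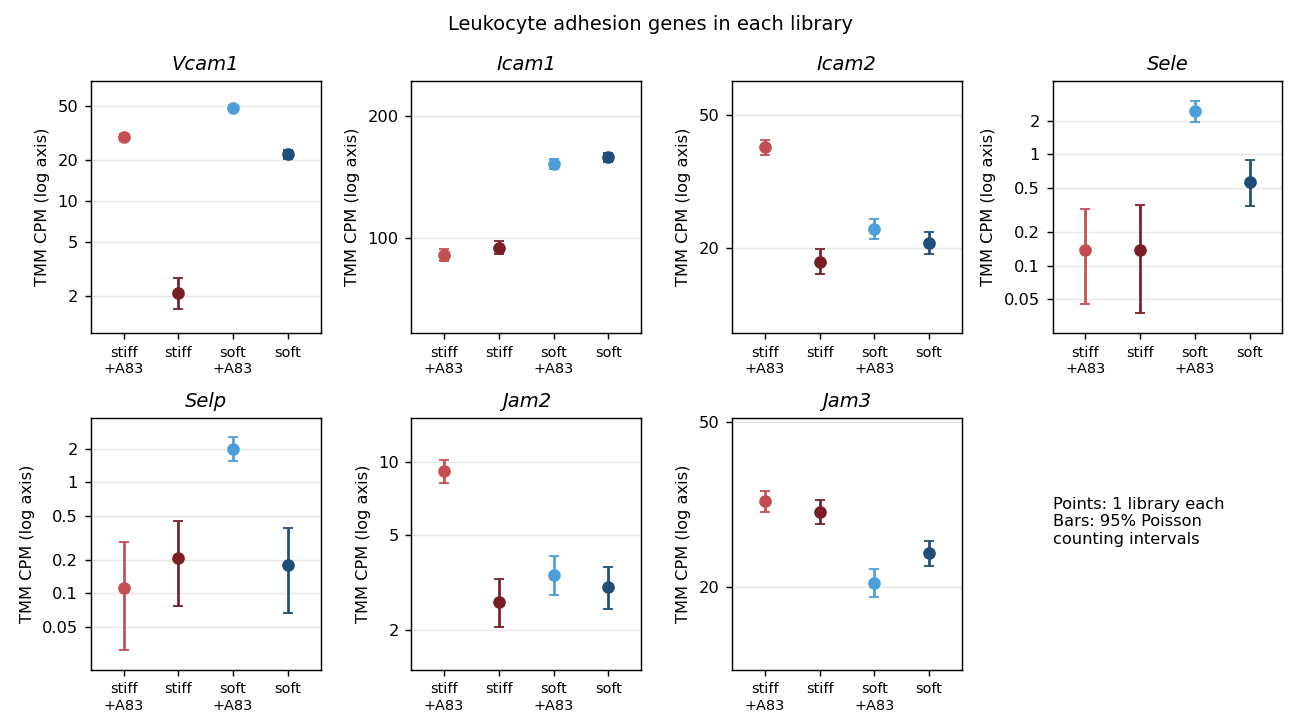
TMM-scaled CPM (log axis) of the 7 genes in stiff with A83-01, stiff, soft with A83-01 and soft, 1 point per library with 95% Poisson counting intervals. Vcam1 is at 2.10 CPM in stiff and between 21.9 and 48.1 CPM elsewhere, and Sele and Selp exceed 1 CPM in soft with A83-01 alone.

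Counts over the family are given beside those of all genes. With A83-01 on stiff matrix, Vcam1, Jam2 and Icam2 were at least 2-fold higher and 0 members lower, against 7.80% of all genes higher and 4.47% lower. Scaled to endothelial markers, 2 of the 3 were, without Icam2. On soft matrix with A83-01, Vcam1, Sele and Selp were higher and 0 lower, against 2.18% and 2.44% of all genes. Sele and Selp passed the filter through that library alone, so counts that include them there were partly fixed. In stiff against soft without inhibitor, 0 members were higher and Vcam1 and Sele were lower, against 5.33% and 8.58%. With A83-01 in both libraries, Jam2 was higher and Sele and Selp were lower, against 6.88% and 6.72%.

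Among the 5 genes that reached the minimum in every library, the median log2 ratio of A83-01 to none was 1.13 on stiff and 0.14 on soft matrix, where the medians of all genes were 0.02 and -0.00. For stiff against soft the median of the 5 was -0.20 without and 0.65 with A83-01 in both libraries, where the medians of all genes were 0.00 and 0.01. Sele and Selp left out, 3 of 5 were at least 2-fold higher with A83-01 on stiff matrix, against 7.80% of all genes. Icam2 was not among these when counts were scaled to endothelial markers. On soft matrix with A83-01, 1 of 5 was higher, against 2.18% of all genes. In stiff against soft, 0 of the 5 were higher and 1 lower without inhibitor, against 5.33% and 8.58% of all genes. With A83-01 in both libraries, 1 was higher and 0 lower, against 6.88% and 6.72%.

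**Figure D2:**
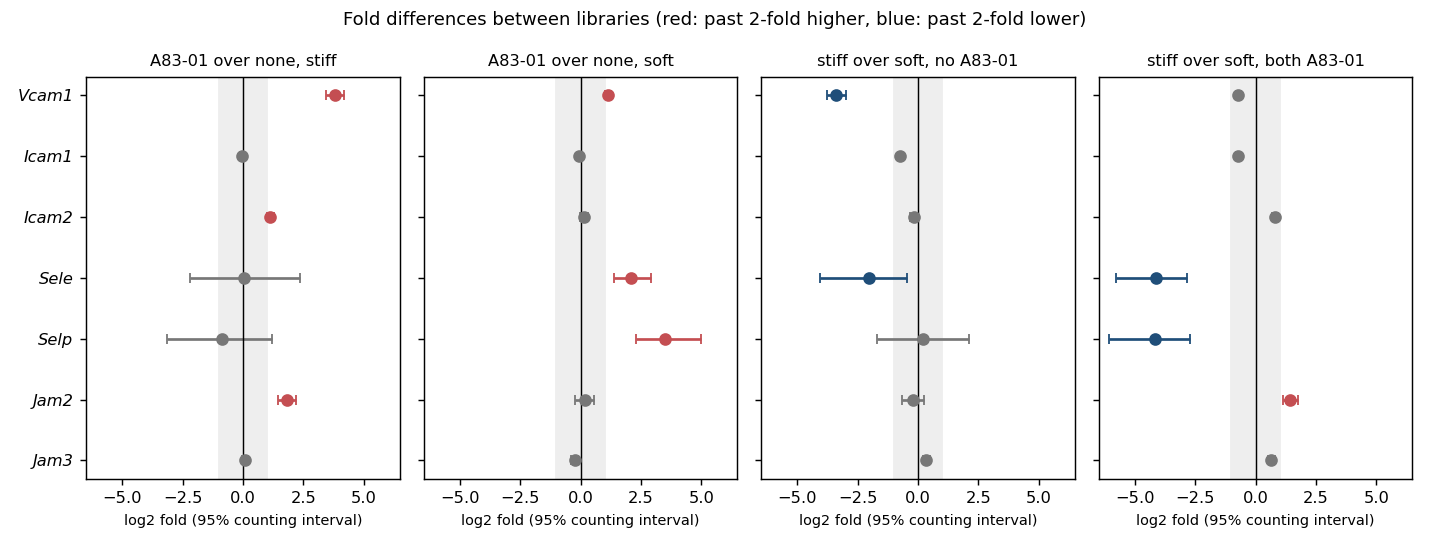
Log2 fold differences of the 7 genes in 4 comparisons of libraries, with 95% counting intervals; red points are at least 2-fold higher, blue points at least 2-fold lower, and the grey band spans 2-fold either way. Vcam1 is red in both comparisons with A83-01, Icam2 and Jam2 on stiff matrix, and Sele and Selp on soft matrix.

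Inhibitor responses on stiff and on soft matrix share no library. Vcam1 was at least 2-fold higher in both. Jam2 exceeded its soft-matrix response by 1.61 on the log2 scale on stiff matrix (1.08 to 2.14) and Icam2 by 0.99 (0.79 to 1.20). The response of Selp on stiff matrix was lower by 3.73 (log2 difference -3.73, -5.92 to -1.54) and that of Sele by 1.98 (-1.98, -4.01 to 0.05). Both selectins passed the filter through soft with A83-01 alone, so their lower response on stiff matrix was partly fixed. The difference for Icam1 was -0.01 (-0.10 to 0.08). These differences are by TMM, and their intervals leave out the choice of scaling. By total counts the log2 response of Icam1 was 0.22 on stiff and -0.04 on soft matrix. By endothelial markers the stiff and soft responses were -0.72 and -0.04 for Icam1, 0.48 and 0.15 for Icam2, and 1.14 and 0.19 for Jam2. None of these differences could be tested with 1 library per group.

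**Figure D3:**
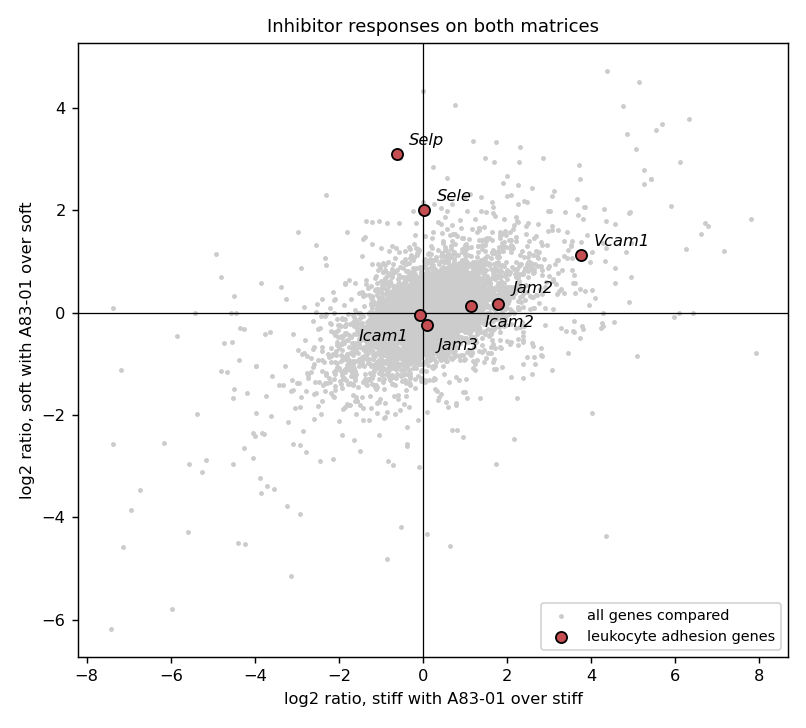
Log2 ratio of A83-01 to none on stiff matrix (horizontal) and on soft matrix (vertical) for the 13634 genes compared (grey) and the 7 adhesion genes (red). Vcam1 lies at 3.77 and 1.13, Selp at -0.63 and 3.10, and Icam1 close to 0 on both axes.

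Stiffness was tested over all 4 libraries, 2 against 2, in an additive model with the inhibitor as the other factor and 1 residual degree of freedom. Its spread joins the gene's own residual with spread borrowed from all genes. That residual is the extent to which stiffness acted differently without and with the inhibitor, so genes with like responses pass more easily. Icam1 fell on stiff matrix by 0.74 (log2 difference -0.74, SE 0.13, adjusted p = 0.0491, quasi-likelihood test of edgeR, Benjamini-Hochberg over all genes). It was lower in 2 of 2 stiff libraries, and the call was lost with DESeq2's size factors (adjusted p = 0.0635) and without the inhibitor in the model (adjusted p = 0.107). It was the 1 member called lower, with 0 called higher, against 3.29% of all genes called lower and 2.35% higher.

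The other 6 genes did not pass. Vcam1 had a stiffness difference of -1.90 (SE 0.66, adjusted p = 0.166) and Sele one of -3.24 (SE 0.75, adjusted p = 0.0831) by that edgeR test. DESeq2's Wald test in the same model called Vcam1 lower (adjusted p = 0.00523), in a test that called 9.62% of all genes in either direction. Selp, Icam2, Jam2 and Jam3 had differences of -2.31 (SE 1.18), 0.32 (SE 0.27), 0.64 (SE 0.46) and 0.49 (SE 0.16). At unadjusted p of at most 0.05, 4 of the 7 passed, Sele among them, against 25.3% of all genes. Sele and Selp passed the filter through a soft library alone, so their lower values on stiff matrix were partly fixed.

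For A83-01 in the same model, edgeR's quasi-likelihood test called 0 of the 7 in either direction, against 0.00% of all genes called higher and 0.0440% lower. Vcam1 had a difference of 2.33 (SE 0.66, adjusted p = 0.277, Benjamini-Hochberg) and was the 1 member of 7 with an unadjusted p of at most 0.05, against 13.3% of all genes, a share near that of the members. It was higher in 2 of 2 libraries with the inhibitor. DESeq2's Wald test called Vcam1 alone of the 7 (adjusted p = 0.00104), against 3.40% of all genes, and limma-voom called 0, against 0.0220%.

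Levels of different genes were set side by side per length, by the deposited FPKM. Icam1 ranked first of the 7 in every library, with 29.7 FPKM in stiff with A83-01, 25.2 in stiff, 47.7 in soft with A83-01 and 49.8 in soft. Sele and Selp ranked last, below 1 FPKM in every library, and Jam2 ranked 5 of 7. Vcam1 made up 11.5% of the summed FPKM of the 7 genes in stiff with A83-01, 1.09% in stiff, 17.7% in soft with A83-01 and 8.59% in soft. Icam2 made up 31.3% in stiff with A83-01, 20.0% in stiff, 15.8% in soft with A83-01 and 15.7% in soft. The summed FPKM was 81.2, 46.9, 88.0 and 80.9 in the same libraries. FPKM is scaled by library size alone, without the TMM factor of 0.876 of the stiff library, and so reads lower there than the CPM used above.

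**Figure D4:**
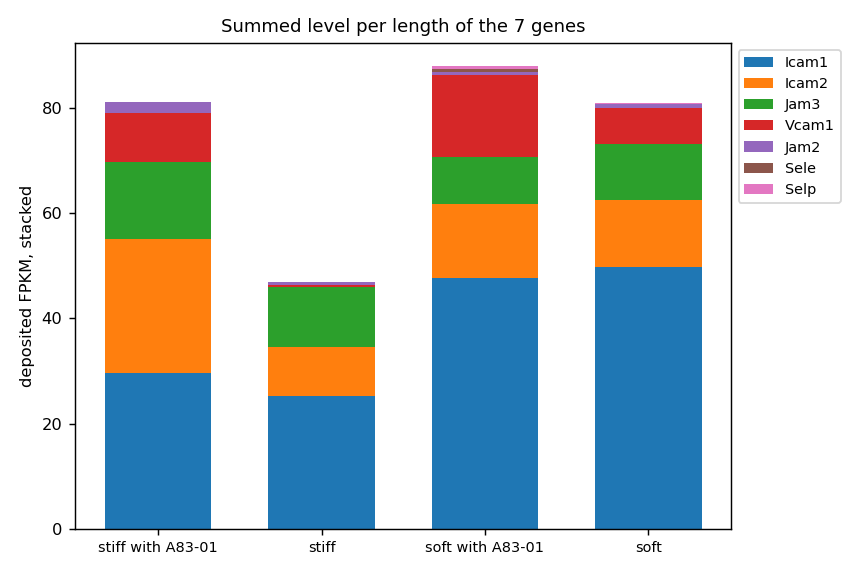
Deposited FPKM of the 7 genes, stacked per library. Icam1 forms the largest block in all 4 bars, and the Vcam1 block is 0.511 FPKM high in stiff and 6.95 FPKM or more in the other libraries.

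Endothelial markers were abundant. VE-cadherin, Cdh5, stood at 1325 CPM in stiff with A83-01, 730 in stiff, 886 in soft with A83-01 and 870 in soft. Of 19 endothelial content markers, 18 were in the table and all 18 of these were compared. Their summed level was 3502 CPM in stiff with A83-01, 2226 in stiff, 2622 in soft with A83-01 and 2652 in soft. The endothelial sum thus moved in the same direction as Icam2 and Jam2 on stiff matrix, and its part in those results was not tested.

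Set against that sum, Vcam1 amounted to 0.838% in stiff with A83-01, 0.0943% in stiff, 1.83% in soft with A83-01 and 0.827% in soft. The stiff library was again the lowest by a wide margin. Scaling to the endothelial sum moved the median log2 ratio of all genes by 0.25 in stiff against soft, -0.41 with A83-01 in both and -0.65 for A83-01 on stiff matrix, so list medians smaller than these depend on the scaling. Scaled to endothelial markers, the log2 ratio of A83-01 to none on stiff matrix was 3.12 for Vcam1, 1.14 for Jam2 and 0.48 for Icam2. Icam1 amounted to 2.59% of the sum in stiff with A83-01, 4.26% in stiff, 5.82% in soft with A83-01 and 5.97% in soft.

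Other cells were present. The 9 mural markers, of pericytes and smooth muscle, summed to 7718 CPM in stiff with A83-01, 7744 in stiff, 5566 in soft with A83-01 and 4201 in soft. Without Anpep, left out after its values were seen, that sum was 6332, 6877, 2060 and 2787 CPM, so both sums were higher on stiff matrix, but with A83-01 on soft matrix the first was higher and the second lower. The 7 fibroblast markers, with collagen Col1a1 among them, summed to 27431, 73961, 43226 and 54336 CPM in the same libraries. Col1a1 held most of that sum; without it, a choice made after its values were seen, the sum was 8353 CPM in stiff with A83-01, 4486 in stiff, 25649 in soft with A83-01 and 15084 in soft. The matrix proteoglycan gene Dcn stood at 5279, 1442, 21955 and 11520 CPM and Pdgfra, a growth factor receptor of fibroblasts, at 241, 198, 931 and 1054 CPM. Dcn, like Vcam1, was lowest in stiff, highest in soft with A83-01 and higher with the inhibitor on both matrices. In the soft libraries it held most of the sum without Col1a1. Dpt went the same way as Dcn, at 96.5, 35.1, 109 and 56.4 CPM, but other fibroblast markers did not. Lum was lower with the inhibitor on both matrices, at 631, 839, 1150 and 1249 CPM. Thy1 was higher on stiff matrix, at 2101, 1967, 1501 and 1200 CPM. The part of fibroblasts in the Vcam1 result was not tested. Of 12 leukocyte and macrophage markers, 11 were in the table and 8 were compared, and Cd3e and Mpo had 0 counts in every library. The general leukocyte marker Ptprc had 43 counts in stiff with A83-01, 23 in stiff, 126 in soft with A83-01 and 97 in soft. That list summed to 80.9 CPM in stiff with A83-01, 79.4 in stiff, 164 in soft with A83-01 and 120 in soft. The additive test called 2 higher and 0 lower on stiff matrix among mural markers, 0 and 2 among fibroblast, 0 and 2 among endothelial, 1 and 2 among leukocyte, and 0 and 1 among platelet markers, against 2.35% and 3.29% of all genes. The leukocyte sum was highest in the library where Sele, Selp and Vcam1 were highest. Of its compared markers, Ptprc, Cd68, Csf1r, Cd74 and Adgre1 were also highest there. Itgb2 was level in both soft libraries, and Lyz2 and Cd14 went otherwise. Adgre1 stood at 2.38, 0.447, 37.4 and 24.5 CPM in the same order of libraries, and Cd68 at 44.5, 29.8, 68.0 and 40.0. Cd74 stood at 0.365, 0, 10.8 and 5.74 CPM and Csf1r at 6.85, 3.96, 9.34 and 9.29. Lyz2 was lowest in soft with A83-01, at 6.09, 23.5, 1.01 and 1.58 CPM. Cd14 was highest in soft, at 6.65, 10.3, 13.9 and 16.3 CPM. The part of leukocytes in the results of Sele, Selp and Vcam1 was not tested.

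NF-kappaB subunits and feedback genes belong to the pathway through which cytokines raise Icam1, Vcam1 and Sele. Of 18 such genes, 0 rose and 7 fell in the additive test, against 2.35% and 3.29% of all genes. Birc3, an inhibitor of apoptosis downstream of TNF receptors, fell by 1.97 (SE 0.19, adjusted p = 0.0151), the atypical inhibitor Nfkbiz by 1.75 (SE 0.13), the ubiquitin-editing Tnfaip3 by 1.67 (SE 0.15) and the inhibitor Nfkbia by 1.53 (SE 0.14) (edgeR, Benjamini-Hochberg). Nfkbia stood at 49.4 CPM in stiff with A83-01, 33.9 in stiff, 131 in soft with A83-01 and 106 in soft. The list's median log2 ratio was -0.41 in stiff against soft without inhibitor and -0.27 with A83-01 in both. With A83-01 against none it was 0.17 on stiff and 0.06 on soft matrix, and 0 of the 18 were at least 2-fold apart.

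Among 16 cytokine and pattern receptors and their adaptors, 0 rose and 3 fell on stiff matrix, against 2.35% and 3.29% of all genes. The toll-like receptor Tlr2 fell by 2.0 (SE 0.19), the interleukin-4 receptor chain Il4r by 1.66 (SE 0.22) and the TNF receptor Tnfrsf1b by 1.43 (SE 0.25). Their median log2 ratio, stiff against soft, was -0.41 without and -0.21 with A83-01 in both. With A83-01 against none the median was 0.13 on stiff and 0.14 on soft matrix.

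Of 22 further genes of leukocyte capture and transmigration, 20 were in the table and 16 were compared, of which 1 rose and 1 fell on stiff matrix, against 2.35% and 3.29% of all genes. Aoc3, the amine oxidase known as vascular adhesion protein, which smooth muscle also makes, rose by 2.90 (SE 0.16). It stood at 111 CPM in stiff with A83-01, 88.7 in stiff, 12.9 in soft with A83-01 and 13.6 in soft. Bst1, a surface ectoenzyme involved in leukocyte migration, fell by 2.12 (SE 0.15). The list's median log2 ratio was 0.03 in stiff against soft, 0.11 with A83-01 in both, 0.35 for A83-01 on stiff and 0.10 on soft matrix.

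Leukocyte counter-receptors, 9 of 12 compared, had 0 called for stiffness by edgeR, with 7 at an unadjusted p of at most 0.05, against 25.3% of all genes. DESeq2's Wald test called 2 of the 9, against 9.62%, and limma-voom 1, against 7.99%. The shared integrin chain Itgb1, which most cells make, stood at 1127 CPM in stiff with A83-01, 1363 in stiff, 789 in soft with A83-01 and 921 in soft. The leukocyte integrin chain Itgb2 stood at 12.9, 10.6, 19.6 and 19.6 CPM. The list's median log2 ratio was -0.72 in stiff against soft, -0.60 with A83-01 in both, -0.16 for A83-01 on stiff and -0.00 on soft matrix.

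Endothelial junction proteins, 15 of 17 compared, had 0 called by edgeR, with 4 at an unadjusted p of at most 0.05, a share near the 25.3% of all genes. DESeq2's Wald test and limma-voom called 1 of the 15 each, against 9.62% and 7.99%. Cdh5 stood as above, and beta-catenin, Ctnnb1, between 417 and 496 CPM in the 4 libraries. Their median log2 ratio was 0.54 for A83-01 on stiff and 0.07 on soft matrix, 0.10 in stiff against soft and 0.51 with A83-01 in both. Of 10 granule and venule genes, 9 were compared. Against 2.35% and 3.29% of all genes, 0 of these rose and 2 fell. Vwf, the granule protein stored with P-selectin, fell by 1.69 (SE 0.20) and the diaphragm protein Plvap by 1.13 (SE 0.15). Vwf stood at 18.6 CPM in stiff with A83-01, 31.2 in stiff, 48.0 in soft with A83-01 and 126 in soft, so its highest library was not that of Selp. The median log2 ratio of this list was 0.03 for A83-01 on stiff and -0.25 on soft matrix, -0.04 in stiff against soft and 0.50 with A83-01 in both. For A83-01, edgeR called 0 genes in each of the 6 related lists, with 1 to 4 a list at an unadjusted p of at most 0.05, against 13.3% of all genes. DESeq2's Wald test, which called 3.40% of all genes, called 2 granule and venule genes and 0 in the other 5 lists, and limma-voom called 0 in all 6.

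**Figure D5:**
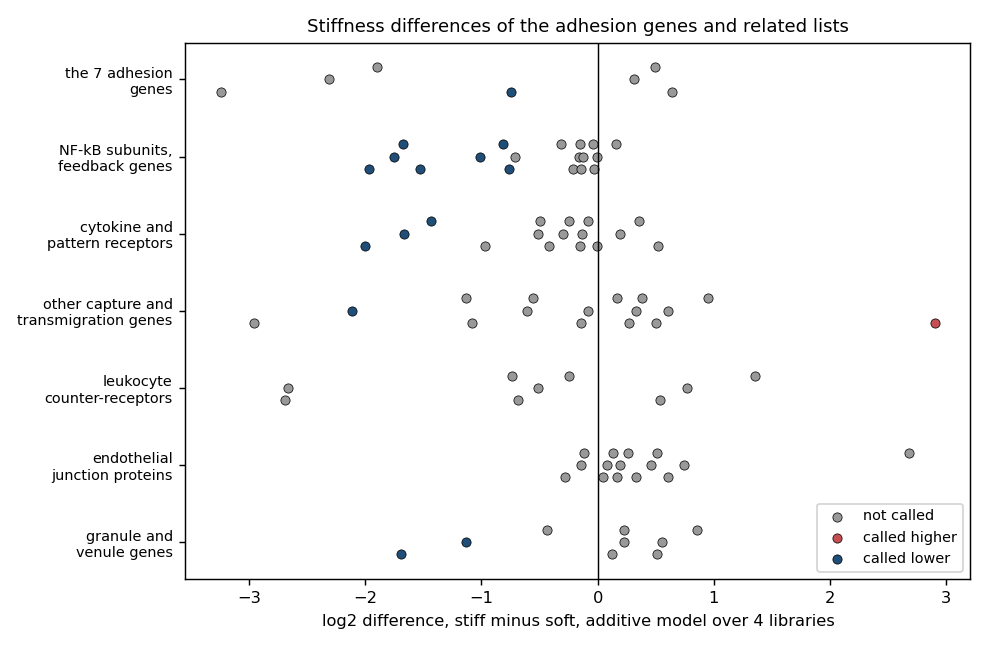
Log2 difference of stiff minus soft in the additive model over 4 libraries, 1 point per compared gene, for the 7 adhesion genes and 6 related lists (vertical offsets within a row only separate points). Blue points were called lower and red points higher at an adjusted p of 0.05, with 7 blue points in the NF-kappaB row and 1, Icam1, in the top row.

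Likeness over the 4 libraries was measured as Euclidean distance between centred log2 CPM. Nearest to Vcam1 was Arnt2, at a distance of 0.22, with 20.8 CPM in stiff with A83-01, 1.72 in stiff, 40.1 in soft with A83-01 and 19.1 in soft. It was the only named gene within 0.25, and Oas1a (0.37) and Mmp27 (0.40) came next. Oas1a and Mmp27 stood at 0 CPM in stiff and reached the minimum of 1 CPM only in soft with A83-01, at 1.10 and 1.04. Their likeness to Vcam1 was thus partly fixed by the filter. Nearest to Icam1 were Relb (0.041), Trpt1 (0.042) and Bcl9 (0.069), among 223 named genes within 0.25. Nearest to Icam2 were Dlgap5 (0.050), Birc5 (0.087) and Atad5 (0.093), and to Jam2 Arhgap6 (0.070), Dapk2 (0.092) and E2f2 (0.14).

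Jam3 lay nearest to Fam118a (0.032), Dip2a (0.040) and Zfp133 (0.043), among 457 named genes within 0.25. Sele lay nearest to Lrrtm4 (0.43), Opn3 (0.76) and Xpnpep2 (0.79), and Selp to Clca4l (1.08), Cst6 (1.31) and Sele itself (1.31), with 0 genes within 0.25 of either selectin. Lrrtm4, Clca4l and Cst6, like Sele and Selp, reached 1 CPM only in soft with A83-01, so the filter partly fixed this likeness. Within the family, Icam2 and Jam2 were the closest pair, 0.55 apart. With 4 libraries such distances describe these libraries only.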

How the data were processed

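Per the labels' protocols, Trizol RNA was enriched for mRNA on oligo(dT) beads, and PCR-amplified cDNA was sequenced with paired reads (DNBSEQ-T7). The authors deposited raw whole-number counts by gene, and FPKM values, which they scaled to gene length and to library size. Per the submitters' processing notes, HISAT2, edgeR and build Rnor_6.0 were used; counter, annotation and versions: not given in the sources used here. RefSeq gene and promoter tables (GRCr8) served for names, overlaps and promoter sequences. The implied length, count over FPKM, was constant within 5% for 93.4% of the 10648 genes whose counts reached 100 in all 4 libraries.

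Libraries were grouped by their titles. Counts were scaled by TMM over all 4 libraries (factors 1.07 for stiff with A83-01, 0.876 for stiff, 1.04 for soft with A83-01 and 1.03 for soft), and genes with at least 1 CPM in at least 1 library were kept. Log2 ratios used a prior count of 2, and folds carry 95% conditional binomial (Clopper-Pearson) intervals. The additive model used edgeR 4.0.16 in R 4.3.3, with limma 3.58.1 and DESeq2 1.42.0 as alternatives. The edgeR fit and the counting intervals were tested on simulated data. SE is the log2 difference over the square root of F. Nothing in the labels says that libraries are separate cultures or animals, so p-values reflect only how these libraries vary. The 7 genes, the 6 related lists and the 5 marker lists were chosen with earlier results of these data known. From each related list, up to 4 genes that passed the stiffness test were named by size, or else the 2 most abundant, and 3 nearest genes were named for each of the 7. The remaining alternatives were other scalings, prior counts, filters, tests and the FPKM.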

Additional observations from a re-analysis of the deposited data

Results flagged for a closer look

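Icam2 went in opposite directions in the 2 comparisons of stiff with soft matrix. It was 1.75-fold higher with A83-01 in both libraries (1.60 to 1.91) and 1.14-fold lower without it (1.02 to 1.28), a difference of 0.99 on the log2 scale. The difference was not tested, since each group has 1 library, and the lower value turned higher when counts were scaled to endothelial markers.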

How the results depend on the processing

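Of 168 alternative values of the library ratios, 124 stayed within their counting interval and 0 of the 2-fold calls changed sign. Log2 of FPKM plus 0.1 and plus 1 each left 1 member (main 2) at least 2-fold lower in stiff against soft. Of all genes, 1484 and 712 were lower there (main 1170). With A83-01 in both libraries, endothelial marker scaling gave 0 higher and 4 lower, and FPKM plus 1 gave 0 higher and 0 lower (main 1 and 2). Over all genes, these settings gave 485 higher and 1816 lower, and 534 and 396 (main 938 and 916). FPKM plus 1 left 1 (main 3) higher with A83-01 on soft matrix, and endothelial marker scaling 2 (main 3) on stiff matrix. Over all genes, these were 113 (main 297) and 449 (main 1064). In the stiffness test, total counts called 3 members lower, DESeq2's size factors 0, DESeq2's Wald test 2 and stiffness alone in the model 0 (main 1). For A83-01, total counts and the Wald test each called 1 higher (main 0). Ranks by level per length were equal in 28 of 28 cases with length-scaled counts. Total-count scaling moved the median of all genes by -0.23 in stiff against soft and 0.28 for A83-01 on stiff matrix, and the share higher among 2-fold calls from 38.3% to 24.8% and from 63.6% to 80.8%. Over all genes, the additive stiffness test called 320 higher and 449 lower. Total counts gave 623 and 1135, DESeq2's size factors 246 and 328, the Wald test 574 and 737, and leaving out the inhibitor 13 and 17. For A83-01 the main test called 0 higher and 6 lower, against 565 and 270 with total counts and 219 and 244 by the Wald test. No paired analysis was possible because each group has 1 library. Leaving out a library leaves no residual degree of freedom, so no such test was run; without either untreated library, the Vcam1 stiffness ratio is the 1.64-fold lower value under A83-01 in place of 10.4-fold. At 4 to 6 counts, Sele and Selp levels on stiff matrix are limited by depth.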
